A study of Mus musculus with 21 samples.

Results

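AGRP and POMC neurons of food-deprived (FD) mice were compared across all genes, using the 11 of 21 RNA-Seq libraries of the series that were labelled as FD. The comparison held 6 libraries of AGRP neurons and 5 of POMC neurons, and the 10 fed libraries (5 of each cell type) showed which cell type differences were also present without deprivation. AGRP neurons came from male NPY-hrGFP mice and POMC neurons from male Pomc-GFP mice, both kept on C57BL/6J, and fluorescent cells were picked by hand from the arcuate nucleus. FD mice had been without food for 24 hours. FD AGRP mice were 47 to 55 postnatal days old and FD POMC mice 54 to 56, and the fed mice 46 to 55 (AGRP) and 51 to 56 (POMC). Each library came from 1 mouse, with 50 to 181 sorted cells in FD AGRP and 44 to 120 in FD POMC libraries. The transgenic line goes with the cell type, so line and cell type cannot be told apart. Each library is a pool, so fewer cells of a type and less RNA per cell cannot be told apart either.

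AGRP neurons make the feeding-promoting peptides AGRP and NPY together with GABA, and are active when energy stores are low. POMC neurons make the melanocortin precursor POMC, whose products reduce feeding, and AGRP protein blocks the receptors those products act on. Both cell types sit side by side in the arcuate nucleus and read circulating hormones such as leptin and ghrelin.

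The deposited values are unnormalized read counts for each gene. FD AGRP libraries held 13421226 to 37663979 gene counts and FD POMC libraries 9822298 to 23924870, and 3 counts, taken as the floor, were worth 0.0911 to 0.294 CPM (TMM-scaled counts relative to library size), a limit from counting error only. FD AGRP replicates 1 to 3 came from P47 mice and the others from P55 mice, so results were also computed without those 3 libraries. Levels below are normalized CPM, which compare 1 gene between libraries and not different genes. Differences are log2 AGRP minus POMC ± SE, with q the Benjamini-Hochberg adjusted p from edgeR's quasi-likelihood test over 16513 genes. The SE was back-calculated, as the size of the log2 difference divided by the square root of that test's F statistic. A differentially expressed gene (DEG) had q under 0.05, an absolute log2 difference over 1, and a group mean above 20 CPM in any of the 4 groups, a level that 8198 genes reached.

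The defining peptides matched the label of every library. Agrp (chr8:105566698-105637393, mm10) stood at 1332 to 6376 CPM in FD AGRP libraries (median 3209) and at 4.15, 5.06, 13.2, 16.6 and 16.96 CPM in the 5 FD POMC libraries. Npy, the co-released orexigenic peptide, stood at 3663 to 10859 CPM (median 6617) against 4.42, 7.11, 3.42, 26.2 and 25.2 CPM. The groups did not overlap for either peptide. Pomc stood at 2.70 to 24.0 CPM (median 10.5) in FD AGRP libraries and at 2182, 3307, 3563, 3779 and 3272 CPM in FD POMC libraries. The log2 differences were 8.27 ± 0.53 for Agrp (q = 9.0e-13), 9.07 ± 0.83 for Npy (q = 1.5e-09) and -8.14 ± 0.49 for Pomc (q = 3.7e-13). None of these 3 had an interaction of cell type with deprivation past the threshold (q = 0.63, 0.78 and 0.61). Cartpt, a further anorexigenic peptide of POMC neurons, stood at 28.6 to 56.9 CPM against 436, 804, 573, 1015 and 738 CPM, a log2 difference of -4.13 ± 0.37 (q = 1.0e-09). The difference for Cartpt was -6.23 in fed mice, and the interaction passed the test (q = 0.0088).

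**Figure D1:**
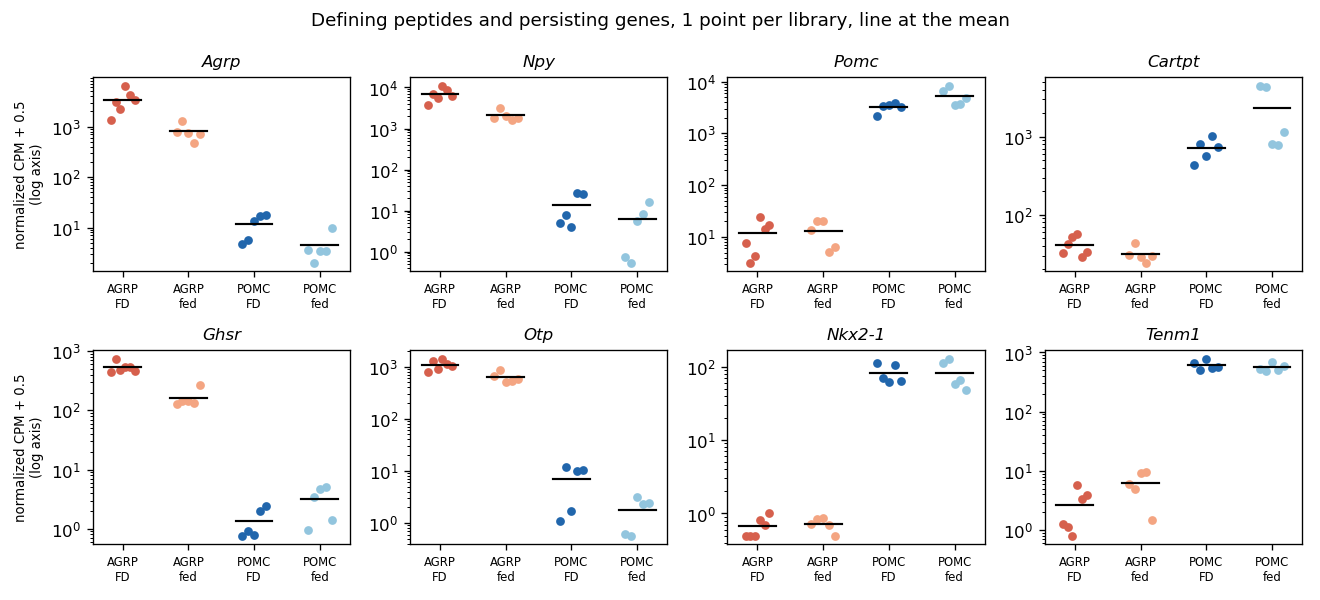
Normalized CPM plus 0.5 (log axis) of the defining peptides and of 4 other genes whose cell type difference was present in both states, with 1 point per library and a line at the group mean. In each panel the AGRP libraries lie apart from the POMC libraries of the same state. The leading persisting genes were named on condition that their libraries overlapped in neither state, so for such genes the separation was set by that choice.

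Markers of glial, vascular and other neuronal cells were summed in each library. Summed astrocyte markers reached 14.6 to 36.3 TPM (transcripts relative to the library total and gene length, as deposited) in FD AGRP and 22.9 to 37.4 TPM in FD POMC libraries, and oligodendrocyte markers 27.7 to 40.6 and 23.5 to 53.9 TPM. Mbp had a mean of 26.6 TPM in FD AGRP and 29.8 TPM in FD POMC libraries, and Slc1a2 of 17.2 and 23.3 TPM, the highest of their lists. Microglia markers summed to 0.384 to 3.35 and 0.647 to 7.68 TPM, with C1qa and C1qb at 0 in every FD library. Endothelial markers summed to 0.341 to 10.2 and 9.41 to 30.2 TPM, with Kdr at 0. The endothelial difference was carried mainly by Itm2a, with a mean of 1.68 TPM in FD AGRP and 20.8 TPM in FD POMC libraries. Tanycyte and ependymal markers summed to 46.5 to 121 against 16.2 to 63.5 TPM, and Vim, an intermediate filament gene, was the 1 DEG among those 8 genes (1.02, q = 0.030). Vim was no DEG with DESeq2, RLE size factors, ERCC scaling or the spike-in set block, nor without any 1 of FD AGRP replicates 3, 4 or 5 or FD POMC replicates 1 or 2. Markers of other arcuate neurons summed to 453 to 2430 TPM in FD AGRP libraries against 7.97 to 93.6 TPM in FD POMC libraries, a difference carried mainly by Sst, the somatostatin precursor, with a mean of 1282 TPM against 17.8 TPM. Their part in the results was not tested.

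The FD libraries separated by cell type. The mean distance between libraries of different cell types (1 minus Pearson's r of log2 CPM plus 1) exceeded that within cell types by 0.171 over the 8198 genes (exact one-sided permutation test over 11 libraries, p = 0.0022, the smallest this test can give). With the FD DEG left out the excess was 0.0297, with the same p. In fed mice the excess was 0.124.

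In FD mice 1346 genes were DEG (16.4% of the 8198), of which 692 had the higher level in AGRP neurons (8.44%) and 654 in POMC neurons (7.98%). In fed mice 662 genes were DEG (8.08%), with the higher level in AGRP neurons for 281 (3.43%) and in POMC neurons for 381 (4.65%). The contrasts share no library, and 407 genes were DEG in both, 30.2% of the FD DEG and 61.5% of the fed DEG. Libraries did not overlap between cell types for 1489 genes in FD mice (18.2%) and for 1043 genes in fed mice (12.7%). The interaction, which tests whether the cell type difference itself changed with deprivation, passed for 940 genes (11.5%). Across the 8198 genes the log2 differences in FD and fed mice had Pearson's r = 0.612 and Spearman's rho = 0.304, a description over genes, which are not independent.

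FD DEG were sorted by their behaviour in fed mice. Persisting genes were DEG in the same direction in both states and numbered 388 (4.73% of the 8198). FD-dependent genes were DEG in FD mice, had q of at least 0.05 in fed mice and an interaction toward the FD difference, and numbered 390 (4.76%). A further 19 genes were DEG in opposite directions in the 2 states, and 549 fell in none of these classes, of which 466 had the same sign in both states. Another 96 genes (1.17%) were fed-dependent, by the mirror image of the FD-dependent rule. AGRP neurons had the higher level for 258 of the FD-dependent genes and POMC neurons for 132. Their fed difference was not shown to be 0: 364 of the 390 had a fitted fed log2 difference under 1 in size, and for 242 its 95% interval lay within 1 on either side. That interval is approximate, from the back-calculated SE and a normal quantile. With ERCC spike-in scaling, which moved the median FD difference of the 8198 genes from 0.04 to 1.20, the FD-dependent genes numbered 13. Of the FD DEG 84.9% were then higher in AGRP neurons, against 51.4%. That scaling used spike-in counts per labelled volume and took no account of sorted cells, of which libraries held 44 to 214. It is thus no scale per cell, and whether the labelled volumes were exact was not tested. All differences here are relative to the TMM scale.

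**Figure D2:**
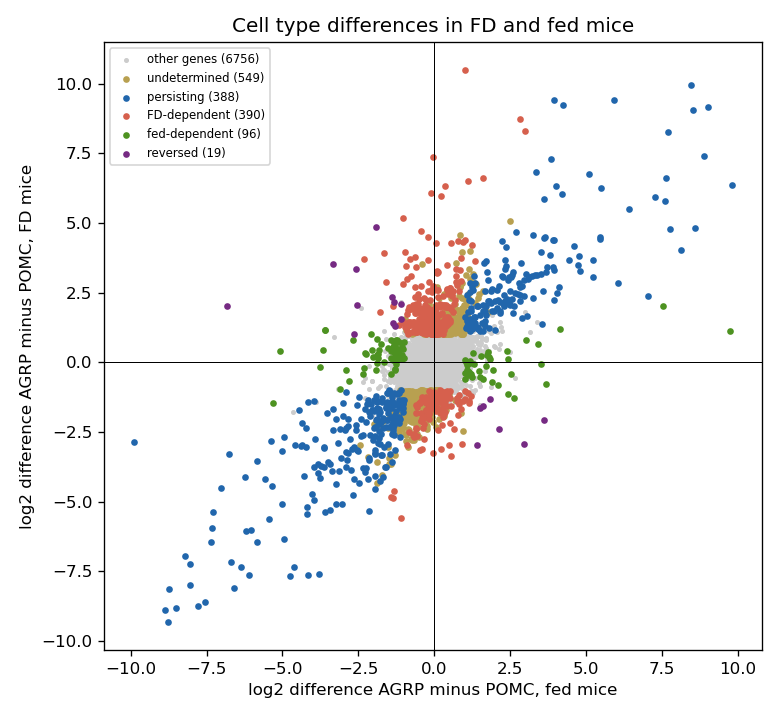
Log2 difference AGRP minus POMC in FD mice (y axis) against the same in fed mice (x axis), with 1 point for each of the 8198 genes, coloured by class. Persisting genes lie along the diagonal, 364 of the 390 FD-dependent genes lie between -1 and 1 on the x axis and the 19 reversed genes lie in the upper left and lower right.

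The group levels describe the FD-dependent differences, and the class was itself defined from contrasts of these 4 groups. For the 258 genes higher in AGRP neurons the median group mean was 107 CPM in FD AGRP and 40.6 CPM in fed AGRP libraries, beside 30.4 CPM in FD POMC and 46.8 CPM in fed POMC libraries. For the 132 genes higher in POMC neurons it was 25.1 and 58.1 CPM in FD and fed AGRP libraries, beside 75.6 and 54.0 CPM in FD and fed POMC libraries. The AGRP mean differed more between the states than the POMC mean for 213 of the 258 and for 114 of the 132 genes. These counts follow in part from how the class was chosen and test nothing. Among FD DEG in none of the classes they were 194 of 255 (higher in AGRP) and 236 of 294 (higher in POMC neurons). Among persisting genes they were 83 of 167 and 155 of 221. For persisting genes the level in the lower cell type was low in both states, with medians of 14.2 CPM (FD POMC) and 14.0 CPM (fed POMC) for those higher in AGRP neurons.

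Persisting genes included receptors and transcription factors that mark each cell type. Ghsr (chr3:27371351-27378010), the ghrelin receptor, stood at 451 to 740 CPM (median 514) in FD AGRP libraries against 0.266, 0.429, 0.296, 1.47 and 1.88 CPM in FD POMC libraries. Its log2 difference was 9.43 ± 0.55 in FD mice (q = 1.8e-13) and 5.93 in fed mice, and the interaction passed the test (3.50 ± 0.61, q = 0.00036). Ghsr thus persisted and was larger under deprivation. Otp (chr13:94875602-94885130), a homeobox factor of arcuate peptide neurons, stood at 773 to 1393 CPM against 0.585, 11.1, 1.18, 9.62 and 9.78 CPM, a log2 difference of 7.41 ± 0.63 (q = 3.6e-10). Acan, the core protein of perineuronal nets, stood at 18.9 to 47.0 CPM against 0.0532, 0, 0.0423, 0 and 0.217 CPM, and Agtr1a, an angiotensin receptor, at 3.19 to 38.9 CPM against 0.0423 to 0.491 CPM. Both were DEG in fed mice as well (q = 6.8e-10 and 0.0074). Il2rg, the common cytokine receptor chain, had 3489 counts over the FD AGRP libraries and 2 over the FD POMC libraries, a ratio of 1299 with a 95% counting interval of 359 to 10731. The predicted gene Gm8773 had 3617 and 3 counts, a ratio of 898 (307 to 4356).

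On the POMC side, Nkx2-1 (chr12:56531958-56536908), a factor that patterns the ventral hypothalamus, stood at 0 to 0.521 CPM in FD AGRP libraries against 113, 70.2, 62.1, 104 and 63.1 CPM in FD POMC libraries. Nhlh2, a helix-loop-helix factor, stood at 0 to 0.516 CPM against 74.5, 72.5, 103, 101 and 113 CPM. The log2 differences of Nkx2-1 and Nhlh2 were -8.84 ± 0.58 (q = 1.7e-12) and -8.88 ± 0.60 (q = 3.0e-12). Prdm12, a zinc finger factor, differed by -8.61 ± 0.70 (q = 1.2e-10), Tenm1, a teneurin adhesion protein, by -8.10 ± 0.51 (q = 9.0e-13) and Sntb1, a syntrophin, by -8.75 ± 0.75 (q = 3.5e-10). Cckar, the cholecystokinin receptor that signals satiety, stood at 0 to 0.670 CPM against 56.3, 76.6, 57.2, 46.9 and 62.8 CPM (q = 1.5e-12). Gm13425, which overlaps Prdm12 at its start on chromosome 2, had 1809 counts over FD POMC libraries and 3 over FD AGRP libraries, a ratio of 810 (277 to 3930). Reads were counted without strand, so reads of these 2 overlapping genes cannot be told apart.

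Hormone and peptide receptors differed by cell type in both directions. Of 23 hormone and cytokine receptors over 20 CPM, 8 were higher in FD AGRP and 3 in FD POMC neurons (fed 5 and 4), with a median log2 difference of 0.44 beside 0.04 for all 8198 genes. Of 24 peptide receptors 6 and 11 were (fed 6 and 12), with a median of -1.10. FD DEG made up 47.8% and 70.8% of these 2 lists, beside 16.4% of all 8198 genes. Peptide receptors were mostly persisting, at 14 of 17 FD DEG, and 2 of the 17 were FD-dependent, beside 28.8% and 29.0% of all FD DEG. Ghr, the growth hormone receptor, stood at 1142 to 1625 CPM against 62.7, 131, 89.2, 115 and 129 CPM (3.69 ± 0.20, q = 2.0e-14). Acvr1c, an activin receptor, differed by 6.06 ± 0.48 (q = 7.7e-11). Prlr, the prolactin receptor, was higher in POMC neurons (-2.17 ± 0.22, q = 9.1e-09), by less than in fed mice (-4.34). Brs3, the bombesin-like receptor, was higher in POMC neurons by -7.64 ± 0.69 (q = 1.2e-09).

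The leptin receptor was FD-dependent. Lepr (chr4:101717404-101815352) stood at 327 to 649 CPM (median 468) in FD AGRP libraries against 34.6, 51.6, 49.8, 30.0 and 43.6 CPM in FD POMC libraries. The groups did not overlap, and the log2 difference was 3.51 ± 0.22 (11.4-fold, q = 9.0e-13). In fed mice the ranges were 56.2 to 134 CPM and 53.3 to 82.8 CPM, which overlapped (0.42 ± 0.21, q = 0.26), and the interaction was 3.09 ± 0.29 (q = 3.2e-08). Stat3, the transcription factor downstream of the leptin receptor, stood at 270 to 622 CPM against 77.2, 114, 139, 119 and 101 CPM (2.00 ± 0.21, q = 1.7e-08), with an interaction of 1.80 ± 0.29 (q = 0.00016). Foxo1, the insulin-regulated forkhead factor, persisted at 595 to 847 CPM against 56.6, 40.7, 46.2, 31.0 and 53.2 CPM (3.97 ± 0.31, q = 5.9e-11). Of 25 leptin and insulin signalling genes, 7 were higher in FD AGRP neurons and 1, Jak2, in FD POMC neurons (fed 2 and 0). FD DEG were 32.0% of the list, beside 16.4% of all 8198 genes. An interaction was present for 5 of the 25, 3 toward AGRP and 2 toward POMC neurons, and 2 were FD-dependent. The median interaction of the list was -0.002, beside 0.096 for all 8198 genes, so the list as a whole did not shift. Prokr2, a prokineticin receptor, was FD-dependent and higher in AGRP neurons (2.73 ± 0.33, q = 2.3e-07; fed -0.45).

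Transcription factors of the arcuate nucleus and hypothalamus differed mostly toward POMC neurons and none was FD-dependent: of 20 over 20 CPM, 12 were higher in FD POMC and 3 in FD AGRP neurons (fed 10 and 3), and 12 of these 15 persisted. Cadherins and protocadherins, which mediate cell adhesion, had 10 of 19 higher in POMC and 2 higher in AGRP neurons in FD mice (fed 9 and 3). FD DEG thus were 75.0% of the transcription factors and 63.2% of the cadherins and protocadherins, beside 16.4% of all 8198 genes. Cdh13 stood at 9.66 to 23.7 CPM against 188, 228, 208, 182 and 225 CPM (-3.55 ± 0.26, q = 1.4e-11). Pcdh20 lay the other way, at 416 to 556 CPM against 28.7, 19.9, 16.8, 37.0 and 35.7 CPM (4.13 ± 0.31, q = 2.4e-11). For transmitter genes, Slc17a6, the vesicular glutamate transporter, stood at 0 to 6.83 CPM in FD AGRP against 242, 189, 224, 176 and 130 CPM in FD POMC libraries (-6.34 ± 0.61, q = 3.5e-09). Slc32a1, the vesicular GABA transporter, stood at 59.5 to 115 CPM against 13.4, 2.86, 0.719, 1.86 and 13.3 CPM (3.81 ± 0.73, q = 0.00025). Both persisted.

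The unfolded protein response (UPR) is the reaction of the endoplasmic reticulum (ER) to its protein load. Of 52 UPR factors and ER chaperones over 20 CPM, 22 (42.3%) were higher in FD AGRP neurons and 0 in FD POMC neurons, against 1 and 1 in fed mice, and 21 of the 22 were FD-dependent, beside 29.0% of all FD DEG. At q under 0.05 alone 34 were higher in FD AGRP and 0 in FD POMC neurons, beside 15.0% and 12.9% of all 8198 genes. Their median log2 difference was 0.98 in FD and -0.13 in fed mice. An interaction was present for 30 of the 52, all toward AGRP neurons, beside 11.5% of all 8198 genes. Hspa5 (chr2:34771970-34777547), the main ER chaperone BiP, stood at 1543 to 2644 CPM against 621, 620, 912, 570 and 708 CPM (1.61 ± 0.16, q = 7.1e-09) with an interaction of 2.02 ± 0.23 (q = 8.6e-07). Hyou1, a co-chaperone, differed by 1.73 ± 0.16 (q = 1.7e-09; fed -0.18). The ER stress sensor Ern1 differed by 2.08 ± 0.33 (q = 2.4e-05), and its interaction (1.89, q = 0.011) did not pass without FD AGRP replicates 1 to 3 (1.55, q = 0.056). Creb3l2, an ER-bound factor, was the persisting member (2.85 ± 0.28, q = 3.9e-09; fed 1.18). Without FD AGRP replicates 1 to 3 the list held 25 genes higher in AGRP neurons. With ERCC scaling it held 5 and 0, and 1 interaction.

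**Figure D3:**
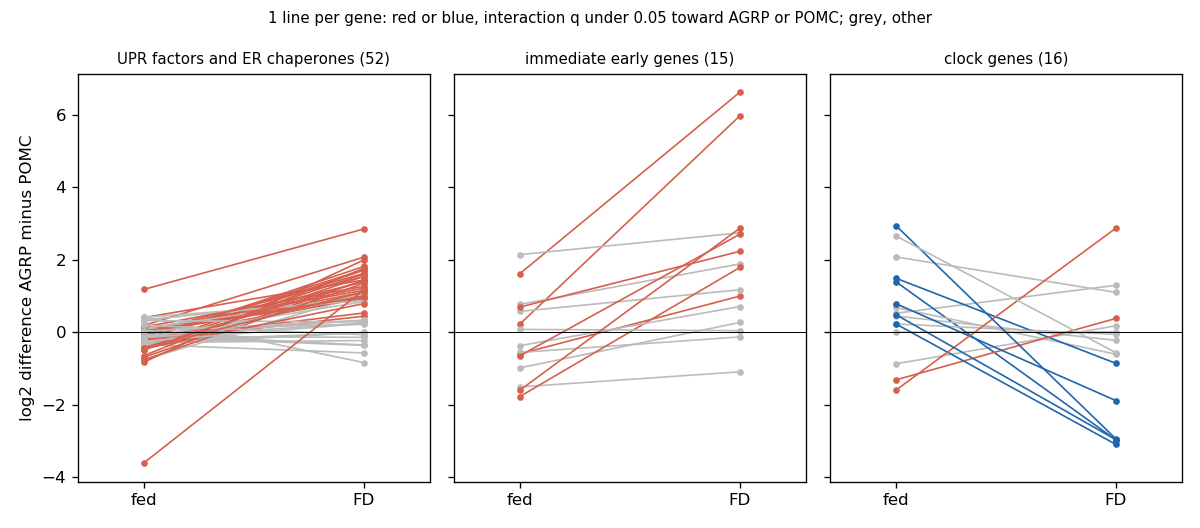
Log2 difference AGRP minus POMC in fed and FD mice for UPR factors and ER chaperones, immediate early genes and clock genes over 20 CPM, with 1 line per gene. Red and blue lines are genes with an interaction toward AGRP or POMC neurons; in the UPR list all 30 are red.

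Granins load dense-core vesicles, and proprotein convertases cut the peptides inside them. Scg2, secretogranin II, stood at 4346 to 9905 CPM against 1621, 1492, 1918, 1426 and 1535 CPM (2.09 ± 0.18, 4.27-fold, q = 3.4e-10). In fed mice it was 1080 to 1762 CPM against 1634 to 2415 CPM, and the interaction was 2.65 ± 0.25 (q = 3.0e-08). Of 15 granins and proprotein convertases, 4 were higher in FD AGRP neurons (fed 0) and 1 in FD POMC neurons (fed 4). An interaction was present for 7, all toward AGRP neurons. Over all 8198 genes 8.44% and 7.98% were FD DEG in these directions (fed 3.43% and 4.65%), and 11.5% had an interaction. Sv2c, a synaptic vesicle protein, stood at 436 to 1045 CPM against 74.5, 78.2, 86.8, 103 and 95.2 CPM (2.87 ± 0.23, q = 8.2e-11), with a fed difference of -0.16.

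Immediate early genes are switched on within minutes of neuronal activity. Of 15 immediate early genes over 20 CPM, 9 were higher in FD AGRP and 1 in FD POMC neurons (fed 1 and 1), with a median log2 difference of 1.79 in FD and -0.37 in fed mice. The 1 gene higher in POMC neurons was Npas4, an activity-induced factor (-1.09, q = 0.049), whose call was lost in 15 of the 21 fits that left out a single library (q up to 0.15) and by limma-voom (-1.07, q = 0.067). Fosl2 (chr5:32136472-32157831), a FOS family factor, stood at 96.6 to 340 CPM (median 226) against 1.44, 5.30, 1.01, 3.73 and 6.38 CPM. Its difference was 5.98 ± 0.66 (q = 5.8e-08) in FD and 0.22 in fed mice, with an interaction of 5.75 ± 0.82 (q = 3.8e-05). Crem, a cAMP-responsive factor, differed by 2.71 ± 0.40 (q = 6.0e-06) with an interaction of 3.36 (q = 0.00017). Of 9 genes for ERK feedback and ETS factors, 5 were higher in FD AGRP and 1 in FD POMC neurons, and 4 were FD-dependent. FD DEG were 66.7% of the immediate early genes and 66.7% of the ERK and ETS genes, beside 16.4% of all 8198 genes. Spred3, an inhibitor of ERK signalling, stood at 123.4 to 180 CPM against 16.97, 8.87, 5.58, 16.0 and 7.75 CPM (3.79 ± 0.29, q = 2.9e-11), and Spry4, a further inhibitor, differed by 3.93 ± 0.66 (q = 4.4e-05). Srxn1, which repairs oxidized peroxiredoxins, stood at 154 to 1189 CPM against 65.1, 32.8, 48.5, 55.5 and 40.1 CPM (3.97 ± 0.36, q = 1.2e-09; interaction 4.93, q = 4.9e-08).

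The genes with the strongest interaction among FD-dependent genes higher in AGRP neurons were of mixed function, and several were near the floor outside FD AGRP neurons. Arap2, an ARF GTPase regulator, stood at 35.8 to 84.4 CPM against 0.0532, 0.429, 0.296, 2.65 and 0.870 CPM (6.32 ± 0.72, q = 8.3e-08; interaction 5.96, q = 5.5e-05). Tnfrsf12a, the TWEAK receptor, differed by 5.19 ± 0.87 (q = 4.5e-05; interaction 6.22, q = 0.00058). Lyve1, a hyaluronan receptor, stood at 42.9 to 217 CPM against 6.49, 0.0477, 1.44, 0.0981 and 0.145 CPM, and its interaction of 6.19 (q = 0.0037) was 3.39 (q = 0.18) without fed POMC replicate 3. Mypn, a sarcomere protein gene, ranged from 2.25 to 78.9 CPM, and its interaction of 7.40 (q = 0.0079) was 5.63 (q = 0.074) without fed POMC replicate 1 and 6.07 (q = 0.083) without FD AGRP replicates 1 to 3. Svs2, a seminal vesicle protein gene, had 3237 counts in FD AGRP and 1 in FD POMC libraries (ratio 2411, 432 to 95240), and its interaction of 9.47 (q = 0.0013) was 7.76 (q = 0.063) without fed POMC replicate 5. The interaction of Tram2, a translocon-associated gene, of 5.91 (q = 0.011), was 3.81 (q = 0.080) without fed POMC replicate 3. By limma-voom the interactions of Lyve1, Mypn, Svs2 and Tram2 had q of 0.076, 0.051, 0.076 and 0.33.

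FD-dependent genes higher in POMC neurons included Lmo3, a LIM-domain factor, at 5.11 to 22.5 CPM in FD AGRP against 73.3, 83.6, 113, 66.0 and 116 CPM in FD POMC libraries (-2.93 ± 0.32, q = 3.6e-08; interaction -3.82, q = 1.7e-06). Sulf1, a heparan sulfatase, stood at 0.101 to 2.13 CPM against 34.3, 34.3, 32.3, 13.3 and 95.4 CPM (-5.58 ± 0.67, q = 2.3e-07). St8sia2, a polysialyltransferase, differed by -3.35 (q = 0.0017), Ctxn2 by -4.85 (q = 1.6e-07) and Vwa3a by -4.62 (q = 1.5e-08). Tnfrsf11b, osteoprotegerin, differed by -4.87 (q = 4.2e-06), and its interaction of -3.51 (q = 0.015) was -2.95 (q = 0.059) without FD AGRP replicates 1 to 3. Grin2b, an NMDA receptor subunit, stood at 265 to 411 CPM against 909, 943, 837, 880 and 901 CPM (-1.45 ± 0.13, q = 1.3e-09; fed -0.27).

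**Figure D4:**
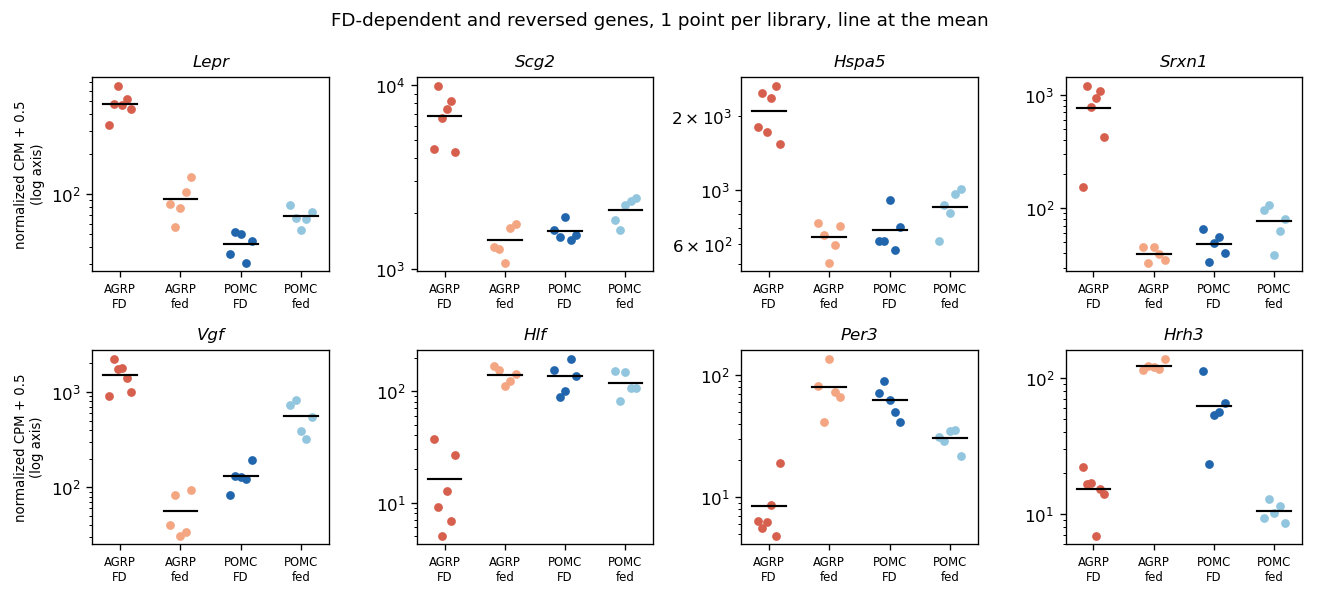
Normalized CPM plus 0.5 (log axis) of FD-dependent genes (Lepr, Scg2, Hspa5, Srxn1, Hlf) and reversed genes (Vgf, Per3, Hrh3), with 1 point per library and a line at the group mean. FD AGRP libraries lie above (Lepr, Scg2, Hspa5, Srxn1, Vgf) or below (Hlf, Per3) every other library, and for Hrh3 they lie below the FD POMC and fed AGRP libraries but not below the fed POMC libraries.

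Clock genes differed in both directions. Of 16 over 20 CPM, 5 were higher in FD POMC neurons (Hlf, Tef, Bhlhe41, Per3 and Bhlhe40) and 2 higher in FD AGRP neurons (Nfil3 and Per1), against 1 and 5 in fed mice. The share of FD DEG was 43.8% of the list, beside 16.4% of all 8198 genes. Hlf (chr11:90336536-90390895), a PAR-domain output factor of the clock, stood at 4.55 to 36.9 CPM (median 10.5) against 155, 88.6, 100, 193 and 137 CPM. Hlf was among the genes named on condition that their FD libraries did not overlap. Its FD difference was -3.10 ± 0.37 (8.55-fold, q = 2.0e-07), whereas the fed difference was 0.23 (interaction -3.33 ± 0.51, q = 0.00011). Bhlhe41, a repressor of clock transcription, stood at 0.517 to 14.2 CPM against 96.7, 54.1, 44.0, 43.6 and 50.5 CPM (-2.96 ± 0.46, q = 1.4e-05). Nfil3, which opposes the PAR-domain factors, differed by 2.88 ± 0.54 (q = 0.00023; fed -1.60). With ERCC scaling 0 of these genes were DEG higher in POMC neurons and 1 was higher in AGRP neurons. The study collected fed and FD mice in the middle of the light phase, and collection times of single libraries were not analysed here.

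Promoters of the named FD-dependent and reversed genes were searched on both strands for the E-box CACGTG, which clock factors bind, and the cAMP response element TGACGTCA, which CREB factors bind, as a description of the letters only. Of 94 FD-dependent genes higher in POMC neurons with a RefSeq promoter (250 bases before to 50 after the start, GRCm38.p6), 10.6% held the E-box and 4.26% the cAMP response element, and of 203 higher in AGRP neurons 7.88% and 5.91%. Among all tested genes with a promoter the shares were 11.3% and 3.43%. Among genes over 20 CPM with a promoter, a level that every FD-dependent gene reached, they were 12.3% and 4.15%. The printed matches leave out the promoters of a single chromosome, so named genes there could hold others. Matches in the remaining named genes are printed here 5' to 3', with the motif in capitals, for Scg2 (minus strand, chr1:79439977-79440276), Hlf (minus strand, chr11:90390868-90391167) and Bhlhe41 (minus strand, chr6:145865371-145865670).
Scg2: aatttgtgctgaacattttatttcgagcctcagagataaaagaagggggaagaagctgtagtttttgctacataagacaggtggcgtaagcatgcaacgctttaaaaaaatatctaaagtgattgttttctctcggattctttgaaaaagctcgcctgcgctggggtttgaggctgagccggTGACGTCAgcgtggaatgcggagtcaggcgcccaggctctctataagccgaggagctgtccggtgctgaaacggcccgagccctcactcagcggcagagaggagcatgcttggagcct
Hlf: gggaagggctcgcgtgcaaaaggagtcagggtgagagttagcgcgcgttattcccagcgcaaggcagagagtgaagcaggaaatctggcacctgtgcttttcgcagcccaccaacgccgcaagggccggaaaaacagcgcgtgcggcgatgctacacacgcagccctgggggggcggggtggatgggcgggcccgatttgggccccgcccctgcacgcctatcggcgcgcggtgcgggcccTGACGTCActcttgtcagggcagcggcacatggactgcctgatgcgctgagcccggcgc
Bhlhe41: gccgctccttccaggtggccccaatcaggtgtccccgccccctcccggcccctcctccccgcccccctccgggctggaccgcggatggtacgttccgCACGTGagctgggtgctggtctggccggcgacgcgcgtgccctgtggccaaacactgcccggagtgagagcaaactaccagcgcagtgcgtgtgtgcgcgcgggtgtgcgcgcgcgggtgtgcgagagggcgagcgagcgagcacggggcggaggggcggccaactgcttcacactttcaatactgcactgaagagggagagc

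Reversed genes were DEG in opposite directions in the 2 states. Vgf (chr5:137026392-137033351), a neurosecretory precursor of the granin class, stood at 914 to 2222 CPM against 82.3, 131, 129, 120 and 193 CPM in FD mice. In fed mice it stood at 30.6 to 93.7 CPM in AGRP and 319 to 830 CPM in POMC libraries. The difference was 3.53 ± 0.32 in FD (q = 1.0e-09) and -3.33 ± 0.32 in fed mice (q = 6.3e-09), with an interaction of 6.86 ± 0.45 (q = 2.6e-11). Hrh3, a histamine receptor, stood at 6.44 to 21.6 CPM against 112, 22.8, 53.2, 55.5 and 64.6 CPM in FD mice and at 114 to 137 against 8.11 to 12.4 CPM in fed mice. Its difference was thus -2.06 ± 0.29 (q = 4.1e-06) in FD and 3.61 (q = 2.8e-09) in fed mice, and the libraries did not overlap in either state. Per3, a period gene, differed by -2.97 ± 0.34 (q = 1.2e-07) in FD and 1.40 (q = 0.0082) in fed mice, and Bhlhe40, a clock repressor, by -2.94 (q = 5.7e-05) and 2.95 (q = 0.00026). Cdkn1a, a cell cycle inhibitor, stood at 215 to 577 CPM against 21.1, 5.44, 7.27, 20.5 and 18.5 CPM in FD mice (4.86 ± 0.63, q = 1.0e-06; fed -1.91). Layn, a hyaluronan receptor, differed by 2.04 (q = 0.012) in FD and -6.83 (q = 6.3e-07) in fed mice, where its 5 AGRP libraries held 6 counts in all, and its FD libraries overlapped. Mt2, a metallothionein, differed by 3.35 (q = 0.00023) and -2.57 (q = 0.011) with an interaction that limma-voom did not call (q = 0.074), Cstb, a protease inhibitor, by 2.36 (q = 8.9e-05) and -1.39 (q = 0.033), and Neurl1b, a ubiquitin ligase, by -2.38 (q = 0.0070) and 2.14 (q = 0.042). Bmp2, a growth factor, differed by 2.04 (q = 0.036) and -2.53 (q = 0.030), and its FD call was lost without any 1 of FD AGRP replicates 2, 3 or 4 or FD POMC replicates 2, 3 or 4, with q up to 0.11. By limma-voom its FD difference had q = 0.20 and its interaction q = 0.13. With ERCC scaling 0 genes were reversed.

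Fed-dependent genes were cell type differences not detected in FD mice. The 5 per direction with the largest interaction were named on condition that their fed libraries did not overlap. Nmur2, a neuromedin U receptor, stood at 0.122 to 2.41 CPM in fed AGRP and 23.4 to 68.3 CPM in fed POMC libraries (-5.09 ± 0.67, q = 2.0e-06), and at 7.43 to 60.7 against 4.63, 14.1, 19.2, 30.5 and 16.4 CPM in FD mice (0.39 ± 0.53, q = 0.68). Hcrtr2, an orexin receptor, differed by -3.61 (q = 0.00022) in fed and 1.16 ± 0.57 (q = 0.16) in FD mice. Htr1a, a serotonin receptor, lay the other way, at 3.68 (q = 0.00064) in fed and -0.79 ± 0.61 (q = 0.42) in FD mice. Rgs6, a regulator of G protein signalling, had 1952 counts in fed AGRP and 2 in fed POMC libraries (ratio 1104, 305 to 9126), and in FD mice its difference was 1.14 ± 0.91 (q = 0.43). Npy2r, an autoreceptor for NPY, differed by 1.62 (q = 1.9e-05) in fed and -0.58 ± 0.23 (q = 0.071) in FD mice. The remaining genes of this kind named by the rule were Nrep, Ikzf2 and RP24-88B13.7 (higher in AGRP) and Creb3l1, Ostf1 and Ntsr1 (higher in POMC neurons). The interactions of Ntsr1 (3.84, q = 0.032) and RP24-88B13.7 (-5.52, q = 0.042) were lost in 11 and 14 of the 21 fits that left out a single library, at q up to 0.075 and 0.16, and that of RP24-88B13.7 had q = 0.15 by limma-voom.

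**Figure D5:**
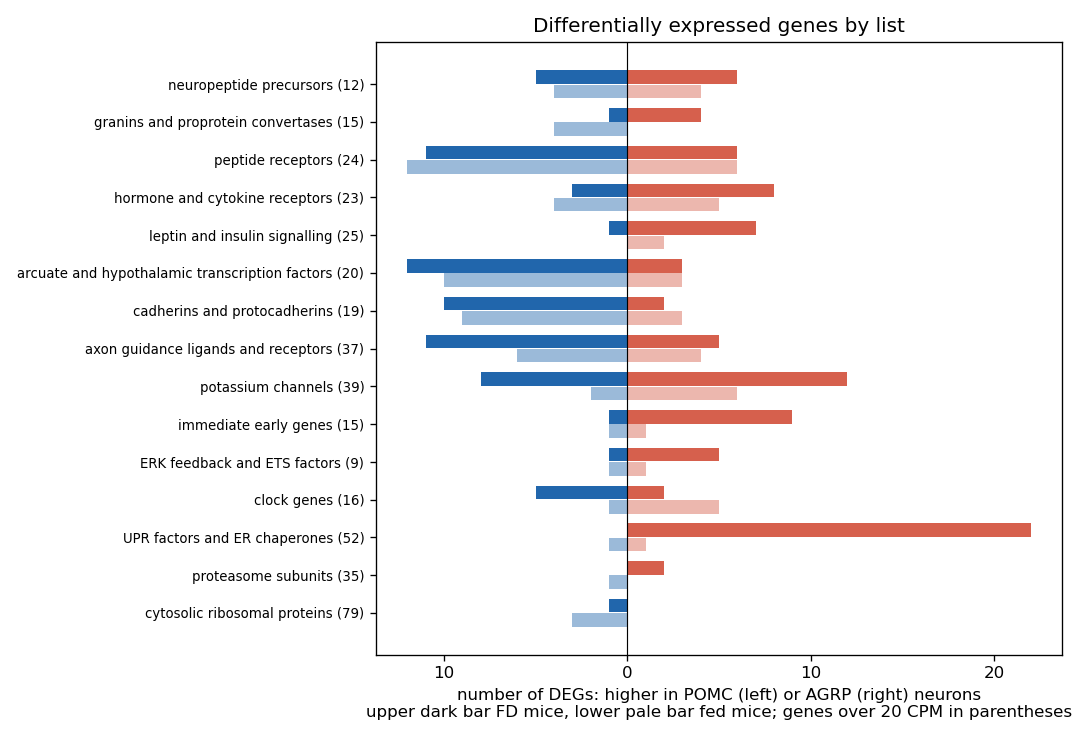
Number of DEGs higher in POMC (left) and AGRP neurons (right) for 15 gene lists, with FD mice as the upper dark bar and fed mice as the lower pale bar; the number of genes over 20 CPM is in parentheses. UPR factors and ER chaperones number 1 in fed and 22 in FD mice on the AGRP side, and transcription factors 3 in both states.

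Ribosomal, mitochondrial and proteasome genes are used by every cell. Of 79 cytosolic ribosomal proteins 0 were higher in FD AGRP and 1, Rpl36a, in FD POMC neurons, and of 68 oxidative phosphorylation subunits 1, Atp5g1, and 0 were. Of 35 proteasome subunits 2, Psmb2 and Psmd8, were higher in FD AGRP neurons and 0 in FD POMC neurons. FD DEG thus were 1.27%, 1.47% and 5.71% of these 3 lists, beside 16.4% of all 8198 genes. The 35 had a median log2 difference of 0.39 in FD and -0.47 in fed mice. The median moved the same way for ribosomal proteins (-0.63 in fed, -0.05 in FD mice) and oxidative phosphorylation subunits (-0.67 and 0.17). Over all 8198 genes it was -0.05 in fed and 0.04 in FD mice. In fed mice 3 ribosomal proteins, 7 oxidative phosphorylation subunits and 1 proteasome subunit were DEG higher in POMC neurons. At q under 0.05 alone 9 proteasome subunits were higher in FD AGRP and 0 in FD POMC neurons, beside 15.0% and 12.9% of all 8198 genes. Of the 35, 15 had an interaction, all toward AGRP neurons, beside 11.5% of the 8198. For ribosomal proteins 1 and for oxidative phosphorylation subunits 4 had an interaction, also toward AGRP neurons. With ERCC scaling 0 proteasome subunits had an interaction. Without FD AGRP replicates 1 to 3 the calls of Rpl36a (-0.71, q = 0.13) and Psmd8 (1.18, q = 0.052) were lost. Of 39 potassium channels 12 were higher in FD AGRP and 8 in FD POMC neurons (fed 6 and 2), led by the leak channel Kcnk9 (5.52, q = 2.3e-07) and by Kcnh7 on the POMC side (-3.51, q = 2.1e-09), both persisting. Of 37 axon guidance genes 5 and 11 were (fed 4 and 6), among them Sema3a (2.60, q = 1.3e-05) and Sema5a (-2.57, q = 5.3e-12). The share of FD DEG was 51.3% for potassium channels and 43.2% for axon guidance genes, beside 16.4% of all 8198 genes.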

How the data were processed

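Both cell types had been picked manually, and 1 RNA-Seq library was made per mouse. The authors made the deposited counts by trimming with cutadapt 1.7.1, removing abundant reads with Bowtie2 2.1.0, mapping to mm10 with STAR 2.4.0i and counting reads per gene without strand with HTSeq 0.6.1p1 (versions from the submitters' processing notes), and they deposited TPM derived from those counts. ERCC and summary entries were kept apart from the genes; reads assigned to no feature were 25.6% to 55.3% of each library. Groups were taken from the labels.

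Genes with CPM over 1 in at least 3 libraries were kept and TMM-scaled counts of all 21 libraries were fitted in 1 edgeR 4.0.16 quasi-likelihood model with 4 groups, with contrasts for FD, fed and their interaction. The study used limma-voom. It was run here as an alternative with limma 3.58.1, as was DESeq2 1.42.0. Named genes were the defining peptides and sets taken from each class. In each direction these were the 8 persisting genes with the largest FD difference whose libraries overlapped in neither state. They also included the 8 FD-dependent genes per direction with the largest interaction whose FD libraries did not overlap. For fed-dependent genes it was the 5 per direction with the largest interaction whose fed libraries did not overlap. Up to 10 reversed genes were named by interaction, without such a condition. From each list the 2 largest DEG per direction and the 2 members with the smallest interaction q were named. All members were named for counts of 5 or fewer. Members and lists were chosen with earlier results of these data known. p-values measure the spread between mice. Alternatives were other tests, scalings, filters, thresholds, blocks, covariates and libraries left out; thinning every library to the gene counts of the shallowest was added after seeing the data.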

Additional observations from a re-analysis of the deposited data

Results flagged for a closer look

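Dixon's criterion was applied to untransformed CPM, and it flags about 1 in 20 by chance where values are normally distributed. Values at or below the floor were kept: Svs2 and Il2rg held 1 and 2 counts over all FD POMC libraries. Single libraries stood far from the rest of their FD group, by this criterion, in 18 of 106 gene and group pairs among the named genes. The normalized CPM of those libraries were, for FD AGRP or FD POMC neurons as named, Acan in AGRP FD replicate 4 (18.9), Acan in POMC FD replicate 5 (0.217), Bhlhe41 in POMC FD replicate 1 (96.7), Creb3l1 in AGRP FD replicate 3 (27.2), Creb3l1 in POMC FD replicate 5 (15.0), Ctxn2 in AGRP FD replicate 3 (4.00), Ghsr in AGRP FD replicate 2 (740.), Il2rg in POMC FD replicate 2 (0.0954), Lyve1 in POMC FD replicate 1 (6.49), Mypn in AGRP FD replicate 2 (78.9), Nmur2 in AGRP FD replicate 2 (60.7), Per3 in AGRP FD replicate 6 (18.6), RP24-88B13.7 in AGRP FD replicate 1 (7.83), Rgs6 in AGRP FD replicate 6 (4.39), Spry4 in POMC FD replicate 1 (1.06), Sulf1 in POMC FD replicate 5 (95.4), Svs2 in POMC FD replicate 3 (0.0423) and Tnfrsf11b in AGRP FD replicate 6 (2.23).

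The cell type difference itself differed between FD and fed mice, by the interaction test of edgeR, for 940 genes. Among the named FD-dependent, fed-dependent and reversed genes the interaction log2 difference was positive for Svs2 9.47, Layn 8.86, Mypn 7.40, Vgf 6.86, Cdkn1a 6.76, Tnfrsf12a 6.22, Lyve1 6.19, Arap2 5.96, Mt2 5.92, Tram2 5.91, Fosl2 5.75, Spry4 5.60, Nmur2 5.48, Creb3l1 4.78, Hcrtr2 4.77, Bmp2 4.58, Ostf1 4.11, Ntsr1 3.84, Cstb 3.75. It was negative for Rgs6 -8.61, Bhlhe40 -5.89, Hrh3 -5.67, RP24-88B13.7 -5.52, Neurl1b -4.52, Htr1a -4.47, Sulf1 -4.47, Per3 -4.37, Ikzf2 -3.92, St8sia2 -3.90, Lmo3 -3.82, Nrep -3.58, Tnfrsf11b -3.51, Bhlhe41 -3.45, Ctxn2 -3.42, Hlf -3.33, Vwa3a -3.29.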

How the results depend on the processing

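Replicate numbers gave no pairing of samples: correlations of deviations between same-numbered FD AGRP and FD POMC libraries were -0.0775 to 0.0589. With the replicate block the FD DEG numbered 1398 and 321 of the 390 FD-dependent genes were found again. Of the 390, 290 were found again in P54 to P56 FD mice alone and 299 with the spike-in set block. The number was 316 with limma-voom, 372 with RLE size factors and 10 with ERCC scaling. Of the 19 reversed genes limma-voom found 13 again. Without 1 library in turn the FD DEG numbered 1285 to 1434 (644 to 728 higher in AGRP, 612 to 706 in POMC), fed DEG 588 to 710, interactions 758 to 1082, persisting 363 to 400, FD-dependent 339 to 490, fed-dependent 69 to 113, reversed 13 to 27, unclassified 501 to 616, and the separation 0.166 to 0.178 (p up to 0.0079). Other tests, scaling by RLE, filtering, blocks, covariates and thinning to the gene counts of the shallowest library (chosen after seeing the data) left these gene counts within 1.5 times, except that reversed genes numbered 29 in P54 to P56 FD mice alone. The separation was 0.0560 over genes with a mean CPM over 1 and 0.286 on untransformed CPM (exact permutation test, p = 0.0022 for each). With a log2 difference over 2 the FD DEG numbered 480 (245 and 235), fed DEG 285, persisting 197 and FD-dependent 111; with no mean CPM criterion the FD DEG numbered 2122, 1129 higher in POMC neurons. ERCC scaling by the labelled spike-in volumes gave 352 FD DEG (299 and 53), 177 fed DEG, 19 interactions, 129 persisting, 13 FD-dependent, 5 fed-dependent, 0 reversed and 210 unclassified genes. Under it Gria1 (0.00045), Jak2 (0.33), Npas4 (0.23), Sod2 (0.24) and Sv2b (0.36) in FD and Gria3 (0.038) in fed mice changed sign; the cause was not tested. Depth limits calls for genes near the floor.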
